A study of Mus musculus with 123 samples.

Results

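C-fiber low-threshold mechanoreceptors (C-LTMRs) were described here by 5 marker genes, Th, Slc17a8, Fam19a4, Cd34 and Zfp521, taken by symbol from the 24134 genes of the expression tables. C-LTMRs are small unmyelinated sensory neurons of the dorsal root ganglion (DRG) that end around hair follicles and respond to gentle touch of hairy skin. In adult mice they are known for tyrosine hydroxylase, encoded by Th, the rate-limiting enzyme of catecholamine synthesis, and for the vesicular glutamate transporter VGLUT3, encoded by Slc17a8. Fam19a4, also named Tafa4, encodes a small secreted chemokine-like protein. Cd34 encodes a surface sialomucin better known from blood progenitors and endothelium, and Zfp521 a zinc finger transcription factor.

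The neurons came from mice of 2 months whose right sciatic nerve had been cut (sciatic nerve transection, SNT), and the DRGs of the other side served as control. Each single-cell library is 1 hand-picked neuron sequenced by Smart-seq2, and all sizes of neuron were sampled, so that their mix was set by the picking. At day 3 the mice were F1 offspring of CAST/Eij males and C57BL/6 females, all female by the study's methods, L5 DRGs were used, and 41 of 48 SNT cells and 18 of 22 control cells were kept by the study after removal of outliers. At day 7 the mice were C57BL/6 of both sexes, L3 to L5 DRGs were used, and 33 SNT and 14 control cells were sequenced, so that day, strain, ganglia and read length (50 bp at day 3, 75 bp at day 7) cannot be told apart. In addition, many neurons of each side were lysed together at day 3 and each lysate was divided into 3 libraries. The series' design and the study's methods differ on how many neurons that was.

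Because no animal is named for any cell, the cells of 1 side and day were treated as 1 sample, and cells are described without a test. The 3 pooled libraries of a side share 1 lysate, so their p-values measure technical spread only. Kept cells held 261351 to 1849130 counts, control pools 563462 to 839135 and SNT pools 1148849 to 2003817. Levels are given as CPM, the counts of a gene divided by its library's total and multiplied by 1e6, and a marker is called present in a cell above 10 CPM. For the pools, the table's column names give one assignment of sides and its line of identifiers the reverse, and the source label calls all 6 intact. The column names were used, and swapping them would turn every pooled direction. Atf3, the transcription factor induced by axotomy, stood at 8.25, 21.5 and 10.6 CPM in the libraries named control and at 1619, 1372 and 1409 CPM in those named SNT, and Gal, the neuropeptide galanin, at 5.50 to 12.4 and 3876 to 4447 CPM.

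Promoter windows of 4 of the 5 genes were read from RefSeq's table. The 250 bases before the start are shown on build GRCm38.p6 for the marker genes with the 3 highest pooled control levels per kilobase, Th (chr7:142899996-142900245, minus strand), Fam19a4 (chr6:97060412-97060661, minus strand) and Cd34 (chr1:194938571-194938820, plus strand), to give the sequence context of genes that were lower together. Capitals mark a cAMP response element core.
Th: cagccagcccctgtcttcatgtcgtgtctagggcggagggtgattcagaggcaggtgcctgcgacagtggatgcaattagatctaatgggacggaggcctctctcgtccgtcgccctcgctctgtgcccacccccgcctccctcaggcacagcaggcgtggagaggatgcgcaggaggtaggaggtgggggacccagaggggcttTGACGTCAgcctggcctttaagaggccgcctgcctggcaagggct
Fam19a4: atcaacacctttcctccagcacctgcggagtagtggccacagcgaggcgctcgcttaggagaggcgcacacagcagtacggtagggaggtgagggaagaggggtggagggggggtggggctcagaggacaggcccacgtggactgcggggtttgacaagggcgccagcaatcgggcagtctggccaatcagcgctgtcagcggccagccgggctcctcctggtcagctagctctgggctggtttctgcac
Cd34: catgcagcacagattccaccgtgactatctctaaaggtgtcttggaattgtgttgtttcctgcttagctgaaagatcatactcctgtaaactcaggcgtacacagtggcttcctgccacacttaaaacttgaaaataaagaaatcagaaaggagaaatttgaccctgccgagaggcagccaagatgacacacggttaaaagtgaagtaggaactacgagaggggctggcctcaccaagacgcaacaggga
Both strands were searched for TGACGT (the core of the cAMP response element), TGACTCA (AP-1, the site of Jun and Fos proteins) and TGTGGT (a RUNX core). The Th window held the first on both strands, overlapping in 1 palindrome that begins 45 bases before the start, and that core occurs in 6.504% of 32536 windows of the same length. Neither of the other motifs, which occur in 4.454% and 13.96% of windows, was in the windows of Th, Fam19a4, Cd34 or either start of Slc17a8.

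In the pooled neurons, all 5 marker genes were lower after SNT at day 3. Of 13509 genes tested, 7.114% passed both limits in the lower direction (edgeR quasi-likelihood test, a log2 change past 1 and a Benjamini-Hochberg adjusted p under 0.05), and 21.25% had every SNT library below every control library. All 5 marker genes met both descriptions. Their median log2 change was -2.27, against 0.02 over all genes tested. In pooled neurons, fewer cells of a type and less RNA per cell cannot be told apart.

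Th stood at 276, 429 and 376 CPM in the control pools and at 52.0, 85.3 and 65.9 CPM in the SNT pools. It was the most abundant of the 5 on either side, at 185 CPM per kilobase of its longest coding transcript in control pools and 34.7 in SNT pools. The groups did not overlap, and the log2 change was -2.27 (SE 0.19, edgeR adjusted p = 7.2e-13).

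Slc17a8 was the least abundant, with 6.90, 4.77 and 11.3 CPM in control pools and 0.63, 0.88 and 0 CPM in SNT pools. These values stand for 15 counts against 2 in all, a ratio of 0.0589 with an exact 95% interval of 0.00653 to 0.253 that covers counting error only. The fitted log2 change was -3.64 (SE 1.12, edgeR adjusted p = 0.014). The gene passed the filter on low values only through the control side. Its call was lost when libraries were thinned to the smallest total (adjusted p = 0.085), without control library 3 (adjusted p = 0.064) and without SNT library 3 (adjusted p = 0.072), all in edgeR. With a prior count of 2 the log2 change was -1.95, so that its size depends on that setting.

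Fam19a4 stood at 106, 98.9 and 74.5 CPM in control pools and at 13.2, 34.8 and 19.96 CPM in SNT pools. Every control library lay above every SNT library, and the log2 change was -1.94 (SE 0.28, edgeR adjusted p = 7.6e-07).

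Cd34 stood at 39.8, 69.9 and 47.9 CPM in control pools and at 3.95, 7.83 and 2.50 CPM in SNT pools. Its log2 change was -3.38 (SE 0.41, edgeR adjusted p = 1.5e-08), the largest of the 4 genes whose call held in every alternative run. An antisense gene, Gm16897, overlaps exons of Cd34 in GENCODE M21. It was at 8.75 CPM or less in every pool, and Smart-seq2 does not mark strand, so that reads from the shared exons cannot be assigned. Because Cd34 is also an endothelial gene, the 8 endothelial markers were summed, and they lay between 5.50 and 14.2 CPM in control pools and between 10.4 and 25.9 CPM in SNT pools. Their sum was thus below Cd34 in each control pool and above it in each SNT pool. Of 5 tested, 2 passed as higher (Cldn5 and Esam), where 8.831% of all genes tested did. Cldn5 was at 0 in every control pool and passed the filter on low values only through the SNT side. The libraries of Esam overlapped between sides. Their part in the Cd34 levels was not tested.

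Zfp521 stood at 44.03, 71.5 and 65.7 CPM in control pools and at 17.3, 20.02 and 12.97 CPM in SNT pools. It had the smallest of the 5 changes, with a log2 change of -1.71 (SE 0.30, edgeR adjusted p = 2.6e-05) and no overlap between sides.

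**Figure D1:**
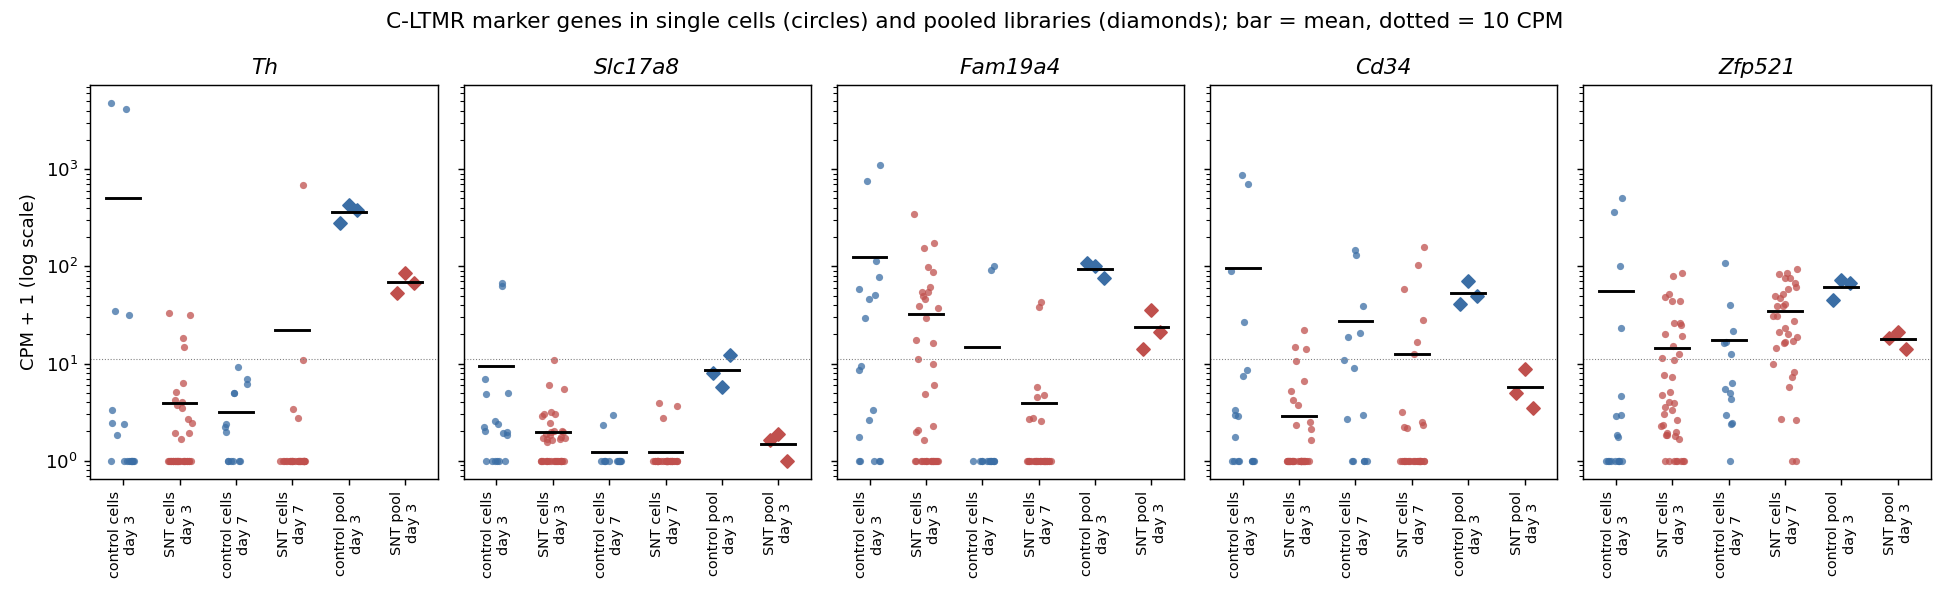
CPM + 1 on a log axis for each of the 5 marker genes, with 1 circle per kept cell (18 control and 41 SNT cells at day 3, 14 and 33 at day 7) and 1 diamond per pooled library (3 per side). Bars are means and the dotted line is 10 CPM. In the control cells of day 3 the mean of each gene is carried by a pair of cells far above the rest, and all 5 genes are lower in SNT pools.

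Genes that accompany the markers in C-LTMRs did not all follow them in the pools. Of the 9 C-LTMR associated genes, 4 fell, none rose and 5 did not pass, with a median log2 change of -1.03. Of all genes tested, 7.114% fell and 8.831% rose. Gfra2, the neurturin receptor, stood at 447, 449 and 496 CPM in control pools and at 20.4, 18.4 and 16.96 CPM in SNT pools (log2 change -4.48, SE 0.19, edgeR adjusted p = 6.4e-22). Phf24, listed under its older name N28178, and Runx1, a transcription factor of unmyelinated afferents, fell by 2.44 and 2.43 on the log2 scale (edgeR adjusted p = 1.8e-17 and 1.0e-09). These genes are also known from nonpeptidergic nociceptors (NP), whose 6 markers all fell (median log2 change -4.11). Pou4f2, a POU-domain factor, passed with 27 counts in control and 5 in SNT pools, a ratio of 0.0817 (exact 95% interval 0.0246 to 0.215), although its libraries overlapped.

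Rarres1, a retinoid-responsive gene, did not pass, at 137, 143 and 174 CPM in control and 87.8, 116 and 109 CPM in SNT pools (log2 change -0.38, SE 0.18, edgeR adjusted p = 0.13). Piezo2, the channel of touch transduction, missed the limit on size with a log2 change of -0.92 (SE 0.14), and Ret, the receptor tyrosine kinase that pairs with Gfra2, had a log2 change of 0.69 (SE 0.13). Cacna1h, which encodes the T-type calcium channel of C-LTMRs, had a log2 change of 1.11 (SE 0.45, edgeR adjusted p = 0.067). The associated genes thus ranged from -4.48 for Gfra2 to 1.11 for Cacna1h.

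Catecholamine genes were examined beside Th. Of 15 genes of amine synthesis, transport, degradation and cofactor supply, 11 could be tested, 1 fell and none rose. Of all genes tested, 7.114% fell, and 1 of 11 is close to that share. The median log2 change of the 11 was -0.25. The gene that fell was Ddc, which encodes the decarboxylase acting after Th, with 7 counts in control pools and 0 in SNT pools. Against a limit of 3 counts over the SNT side this is at least 5.29-fold lower (edgeR adjusted p = 0.035), and the call rests on those 7 counts. Ddc passed the filter on low values only through the control side, and its libraries overlapped between sides. Gch1, the first enzyme of the tetrahydrobiopterin cofactor that Th needs, stood at 22.002, 1.19 and 0 CPM in control and at 11.96, 5.22 and 8.98 CPM in SNT pools, without a call.

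None of the tested relatives of the marker genes fell, where 7.114% of all genes tested did. Of 12 relatives 10 were tested, 4 rose and 6 did not pass, where 8.831% of all genes tested rose. Podxl, a sialomucin of the Cd34 family, had 3 counts in control and 92 in SNT pools, a ratio of 13.5 (exact 95% interval 4.49 to 66.8, edgeR adjusted p = 2.0e-05). Podxl2 and Slc17a7, which encodes VGLUT1, rose by 1.501 (SE 0.29) and 1.43 (SE 0.24) on the log2 scale (edgeR adjusted p = 9.4e-05 and 1.2e-05). Zfp423, the close relative of Zfp521, rose by 1.36 (SE 0.38, edgeR adjusted p = 0.0057). Slc17a6, which encodes the main glutamate transporter of DRG neurons, had a log2 change of -0.03 (SE 0.14). The 4 other Fam19a genes tested had log2 changes from -0.83 to 0.77 without a call.

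**Figure D2:**
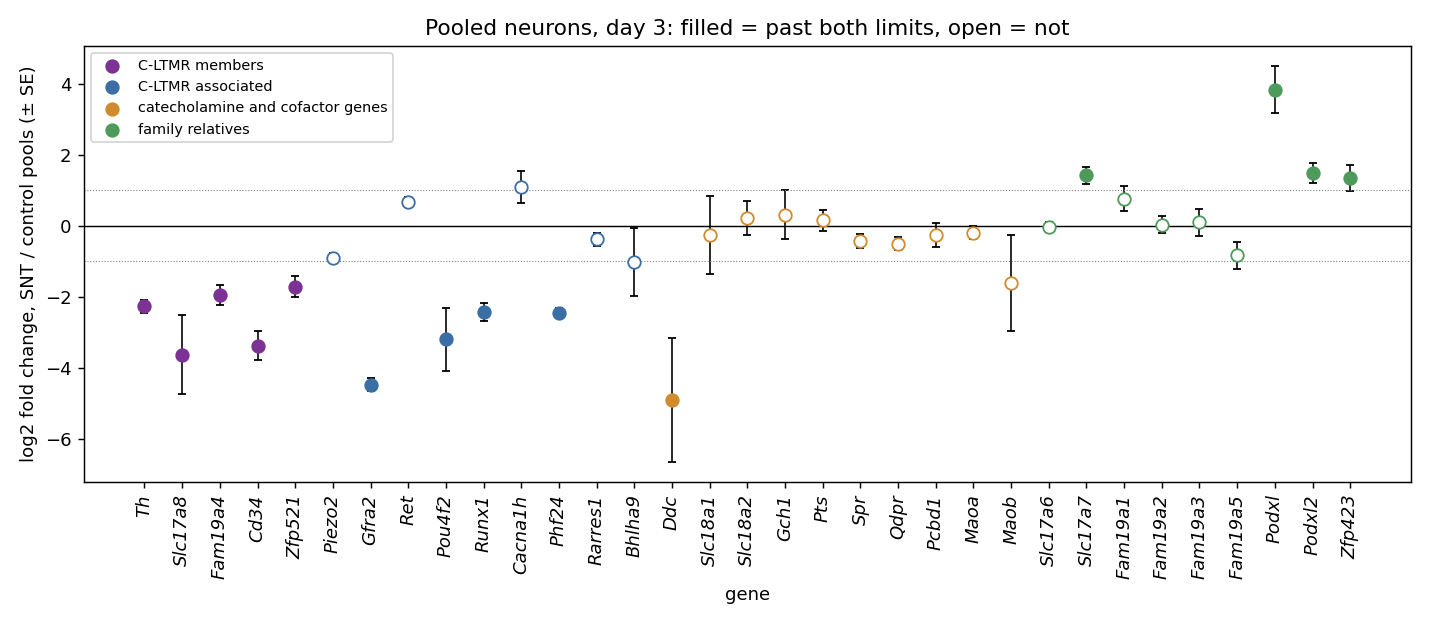
Log2 change of SNT against control pools with its SE (vertical axis) for the 5 marker genes and tested genes of 3 lists (horizontal axis), of which some are not shown. Filled points passed both limits and dotted lines mark a log2 change of 1 in either direction. The 5 marker genes lie between -1.71 and -3.64, and 4 relatives lie above 1 with a call.

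Other cell types also differed between the pools. For the counts that follow, 7.114% of all genes tested fell and 8.831% rose. The 10 glial markers summed to between 11030 and 13660 CPM in control pools and between 4697 and 5440 CPM in SNT pools, and of 9 tested 4 fell and 1 rose. Of the markers listed for sympathetic neurons, which use Th for noradrenaline synthesis, Phox2a and Hand2 were at 0 in every pool. The nicotinic receptor subunit gene Chrna3, also listed, stood at 39.04 to 42.6 CPM in control and 56.4 to 79.5 CPM in SNT pools. It missed the limit on size (log2 change 0.87, SE 0.25, edgeR adjusted p = 0.0076). Among single cells of day 3, Chrna3 was above 10 CPM in 11 of 18 control and 20 of 41 SNT cells, so that it did not set sympathetic neurons apart. Large myelinated neuron (LM) markers had a median log2 change of 1.01, and 3 of 7 rose. Of the 6 PEP markers 3 fell and 1 rose, all 6 injury genes rose (median log2 change 5.38), and of the 6 general neuronal genes only Tubb3 rose, their sum lying between 7424 and 8545 CPM in control and between 13320 and 15030 CPM in SNT pools. Of 5 fibroblast markers tested 1 fell (Col1a2), and of 2 immune markers tested 1 rose (Csf1r). Csf1r was at 0 in every control pool and passed the filter on low values only through the SNT side. The part of these differences in the marker genes' changes was not tested.

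Among the kept cells of day 3, 2 control cells held all 5 marker genes above 10 CPM, 11.1% of 18 (exact 95% interval 1.38% to 34.7%). No SNT cell did, and 0 of 41 cells allows a share of up to 7.317%, taking 3 cells as the limit of a count of 0 (exact upper bound 8.604%). At day 7 none of 14 control and none of 33 SNT cells held all 5, which allows 21.4% and 9.09% (exact upper bounds 23.16% and 10.58%). These shares are of hand-picked cells, and the intervals cover counting error only.

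Control cell 4 of day 3 had Th at 4804, Slc17a8 at 67.0, Fam19a4 at 761, Cd34 at 866 and Zfp521 at 503.5 CPM. Control cell 7 had Th at 4165, Slc17a8 at 61.1, Fam19a4 at 1099, Cd34 at 708 and Zfp521 at 358 CPM. These were the highest values of every marker gene among all 59 kept cells of day 3. In the cells with fewer than 3 marker genes, the highest values were 32.3 CPM for Th, 9.81 for Slc17a8, 345 for Fam19a4, 25.99 for Cd34 and 101 for Zfp521. Per kilobase of transcript, the order in both cells was Th first, then Fam19a4 and Cd34, Zfp521, and Slc17a8 last, at 2464 and 2136 CPM per kilobase for Th and 15.03 and 13.7 for Slc17a8.

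Both cells also carried the associated genes. Piezo2 stood at 1538 and 1586, Gfra2 at 1262 and 1257 and Rarres1 at 1758 and 1238 CPM in cells 4 and 7, the 2 highest values of each gene among the 59 cells. Ret, at 1301 and 1266 CPM, and Pou4f2, at 96.0 and 58.5 CPM, were likewise highest there. Bhlha9, a basic helix-loop-helix gene, differed between them, with 159 CPM in cell 4 and 21.2 in cell 7, where 9 cells ranked above it. Phf24 reached 1979 and 2132 CPM, with ranks 4 and 3. Runx1 stood at 283 and 179 CPM, with ranks 1 and 7, and Cacna1h at 150 and 184 CPM, with ranks 2 and 1.

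Markers of other neurons were low or absent in the pair. Nefh, the neurofilament of myelinated neurons, stood at 16.8 and 6.48 CPM against a median of 132 CPM over the day. Calca, the peptide of peptidergic nociceptors (PEP), was at 9.68 and 0 CPM, and Mrgprd, the NP receptor, at 1.19 and 0 CPM. P2rx3, the ATP-gated channel of NP neurons, was present, at 573 and 1030 CPM against a median of 550. Of the markers listed for sympathetic neurons, Dbh, Phox2a, Hand2 and Chrna3 were at 0 in both cells, as were all 8 endothelial markers. Slc6a2, also listed, was at 1.21 CPM in cell 4 and 0 in cell 7. Chrna3 was above 10 CPM in 11 of 18 control and 20 of 41 SNT cells of day 3, and was thus common among the picked neurons. Ddc, Dbh and Pnmt, the enzymes that act after Th, were at 0 too, so that Th alone was counted among the enzymes from tyrosine to adrenaline. Of the cofactor genes, Gch1 was at 0, but Pts stood at 53.7 and 72.05, Spr at 82.3 and 55.5, Qdpr at 136 and 92.8 and Pcbd1 at 68.02 and 109.6 CPM in cells 4 and 7. The amine oxidase gene Maoa was at 253 and 153 CPM.

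Glial transcripts differed within the pair. Mbp, a myelin gene, stood at 1239 CPM in cell 4, the highest of the 59 cells, and at 164 CPM in cell 7, and Apoe stood at 2706 and 168 CPM. Their part in the marker gene levels was not tested, and the marker genes were high in both cells. The injury gene Atf3 was at 8.35 and 33.6 CPM. The cells were separate libraries, with 837997 and 1368842 counts and a chi-square of 7.83 per gene over 10244 genes. Their log2 values correlated at r = 0.935 across genes. Over 1711 pairs of day-3 cells the median r was 0.883 and the highest 0.955.

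By a rule chosen after the values were seen (above 50 CPM in both cells and at most 10 CPM in each of the other 57 kept cells of day 3), 6 genes were held by this pair alone. One was Slc17a8 itself. The others were Cacna1i, a T-type calcium channel gene at 87.1 and 61.4 CPM in cells 4 and 7, Wnt11, a secreted Wnt ligand at 64.4 and 97.2 CPM, Scin, the actin-severing scinderin at 129 and 83.4 CPM, Slc51a, a subunit of an organic solute transporter at 140 and 66.7 CPM, and Synpo2, an actin-binding gene at 115 and 78.9 CPM. In the pools Slc51a, named after its values were seen, stood at 9.63, 13.1 and 12.4 CPM in control and at 0 in each SNT library. Of all genes tested, 21.25% had every SNT library below every control library. Pooled levels of Cacna1i, Wnt11, Scin and Synpo2 are not given, so the value of Slc51a does not speak for them.

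**Figure D3:**
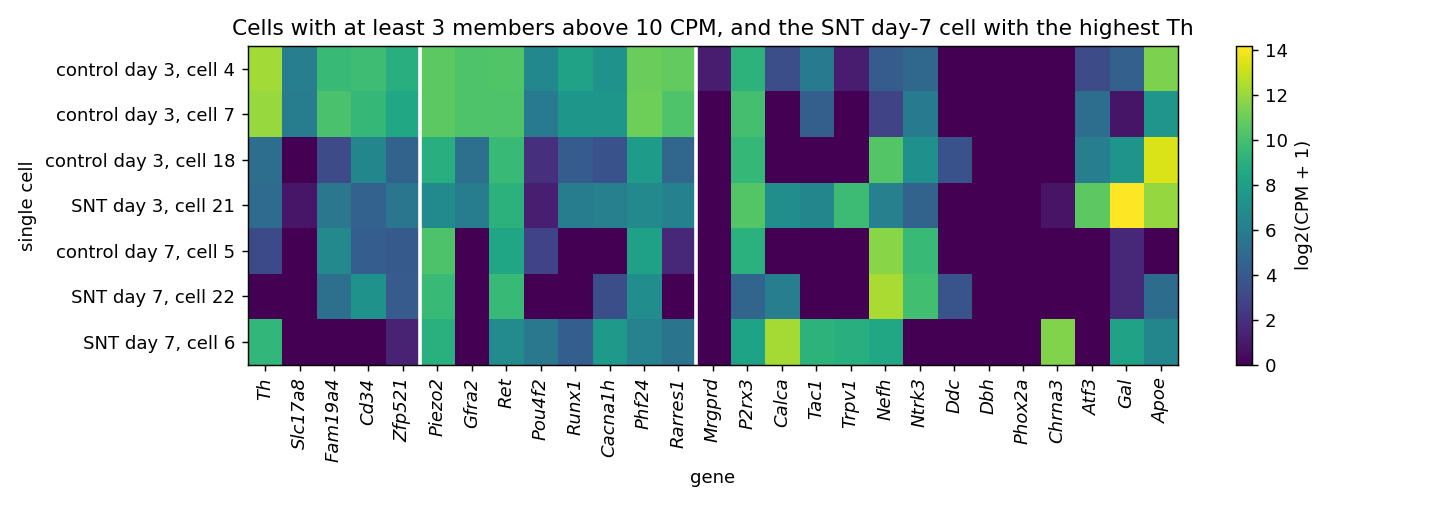
Log2(CPM + 1) as colour for the 6 kept cells with at least 3 marker genes above 10 CPM and for SNT cell 6 of day 7, which had the highest Th of its day (rows). Columns are the 5 marker genes, 8 associated genes, and genes of other neurons, injury and glia, divided by white lines. Control cells 4 and 7 of day 3 share high marker genes and low Nefh, from Th at 4804 and 4165 CPM to Nefh at 16.8 and 6.48 CPM, which none of the other 5 cells has. Apoe differs between them, at 2706 and 168 CPM.

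The pair gave most of each marker gene's control total at day 3. Mean Th was 502 ± 1453 CPM (SD, n = 18 cells) in control and 2.94 ± 7.42 CPM (SD, n = 41 cells) in SNT cells, and cells 4 and 7 gave 99.2% of the control total. Cd34 averaged 94.98 ± 254 against 1.90 ± 4.55 CPM, and 92.1% of the control total came from the same pair. For Zfp521 the means were 55.2 ± 141 and 13.3 ± 21.05 CPM and the pair's part 86.7%. For Slc17a8 they were 8.31 ± 20.4 and 0.96 ± 1.81 CPM with 85.6%, and for Fam19a4 125 ± 300 and 31.3 ± 64.7 CPM with 82.6%.

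All 5 log2 ratios of mean CPM + 1 were below -1 on the SNT side, at -6.99 for Th, -5.05 for Cd34, -2.25 for Slc17a8, -1.97 for Zfp521 and -1.97 for Fam19a4. Of 13663 genes averaging 1 CPM or more over the day's cells, 6.075% were lower by that much. Without the pair, a choice made after the data were seen, 1 of 5 remained below -1, namely Cd34 at -1.70 (8.46 against 1.90 CPM). That value rested on control cell 18, with Cd34 at 88.7 CPM, and without all 3 control cells that held at least 3 marker genes Cd34 was at -0.50 (3.114 against 1.90 CPM) and 0 of 5 were below -1. Without the pair alone, Th was at -0.44, Slc17a8 at -0.26, and Fam19a4 and Zfp521 turned to 0.34 and 0.63. Over medians of cells, too, Zfp521 turned, to 1.51.

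Outside the pair, few cells held several marker genes. Of 16 control cells 1 held at least 3 and 7 held 1, and of 41 SNT cells 1 held at least 3 and 25 held 1. Fam19a4 was present in 6 of the 16 control cells (37.5%, exact 95% interval 15.2% to 64.6%) and in 16 of the 41 SNT cells (39.02%, 24.2% to 55.5%), up to 345 CPM in SNT cell 47. Zfp521 was present in 2 of the 16 control cells (exact 95% interval 1.551% to 38.4%) and in 14 of the 41 SNT cells (34.1%, 20.1% to 50.6%), of which 3 also held Fam19a4. Th passed 10 CPM in 2 of these control cells and 4 SNT cells, at most 33.3 CPM, and 3 of the 4 SNT cells also held Zfp521. Slc17a8 passed it in no cell outside the pair. These shares are of cells and were not tested between sides.

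Across the 59 cells, each of the 10 pairs of marker genes had a Pearson r between -0.03 and 0.75 on log2(CPM + 1), highest for Th with Cd34. Over the 57 cells without the pair the range was -0.33 to 0.40. Fam19a4 with Zfp521 changed from -0.03 to -0.33 and Th with Fam19a4 from 0.30 to -0.11. These are descriptions across cells that share animals, sides and libraries' depth.

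In those 57 cells Fam19a4 went with genes of NP neurons, with r of 0.59 for P2rx3, 0.57 for Mrgprd and 0.53 for Gfra2, and -0.48 for Nefh. Zfp521 went the other way, with r of 0.59 for Nefh, 0.59 for Ntrk3, the receptor of LM neurons, -0.60 for P2rx3 and -0.64 for Calca. At day 7, over 47 cells of other mice, the same r for Zfp521 were 0.40, 0.63, -0.57 and -0.66. Those of Fam19a4 were 0.24 with P2rx3, 0.49 with Mrgprd, 0.03 with Gfra2 and -0.23 with Nefh, where Mrgprd was above 10 CPM in 1 of 14 control and 0 of 33 SNT cells. Zfp521 also had r of 0.51 with the glial gene Apoe at day 3 and -0.26 at day 7. For Th, Cd34 and Slc17a8, r with Nefh, P2rx3, Mrgprd, Calca and Piezo2 lay between -0.37 and 0.21 in the 57 cells. Over the 47 cells of day 7, Th had r of 0.47 with P2rx3, 0.31 with Calca and -0.41 with Nefh. Cd34 had 0.49 with P2rx3 and 0.45 with Calca there. The remaining r of Th and Cd34 with these genes lay between -0.14 and 0.15 at day 7, and those of Slc17a8 between -0.18 and 0.14.

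**Figure D4:**
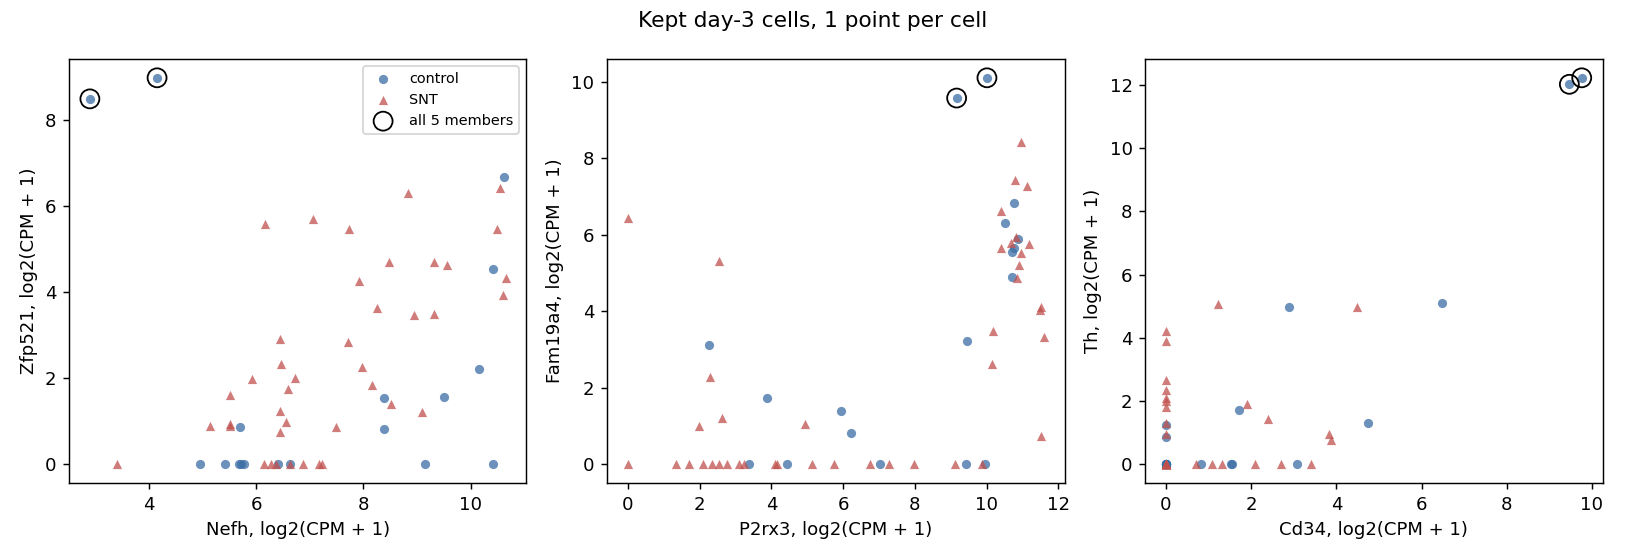
Log2(CPM + 1) of 3 pairs of genes over the 59 kept cells of day 3, with 1 point per cell (18 control, 41 SNT) and a ring around the 2 cells with all 5 marker genes. Without the ringed cells Zfp521 is higher in cells with more Nefh (r = 0.59), Fam19a4 in cells with more P2rx3 (r = 0.59), and Th and Cd34 are both low (r = 0.40).

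Control cell 18 of day 3 held 3 marker genes, with Th at 33.3, Cd34 at 88.7 and Zfp521 at 22.2 CPM, but Nefh was at 1361 and Apoe at 10781 CPM, and Slc17a8 was at 0. SNT cell 21 of day 3 held 4, with Th at 30.6, Fam19a4 at 48.9, Cd34 at 21.2 and Zfp521 at 46.98 CPM. It had the injury genes Atf3 at 1575 and Gal at 18677 CPM, the pain channel gene Trpv1 at 855 CPM, and Gfra2 at 60.7 CPM. It was the only SNT cell of day 3 with more than 2 marker genes.

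The pools can be set beside the pair. Mean Th in control pools was 361 ± 77.6 CPM (SD over 3 libraries of 1 lysate), 7.51% of the level in control cell 4 and 8.66% of that in cell 7. Over the other 4 genes, the control pools had 6.07% to 16.9% of the level in either cell. In SNT pools Th was at 1.41% and 1.63% of these levels, and the other 4 genes at 0.55% to 4.68%. Per gene the control-to-SNT ratio of pooled means was 5.33 for Th, 15.2 for Slc17a8, 4.11 for Fam19a4, 11.05 for Cd34 and 3.599 for Zfp521.

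At day 7 no cell had the profile of the pair, and the marker genes did not move together. Th was below 10 CPM in every control cell (highest 8.27 CPM) and averaged 2.20 ± 2.74 CPM (SD, n = 14 cells). In SNT cells it averaged 20.99 ± 118 CPM (SD, n = 33 cells), of which 98.0% came from cell 6. The log2 ratio was 2.78, and 6.374% of 13320 genes were higher by more than 1, but it was -0.92 without the highest cell of each side. Slc17a8 was at 2.95 CPM or less in every cell of day 7 and had 2 counts in control and 5 in SNT cells over the whole side.

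SNT cell 6 of day 7, from a female, had Th at 679 CPM with Slc17a8, Fam19a4, Cd34 and Gfra2 at 0 and Zfp521 at 1.62 CPM. It carried Calca at 4884, Tac1 (the substance P precursor gene) at 576, Trpv1 at 485 and Chrna3 at 2893 CPM. Cacna1h at 195 and Pou4f2 at 50.3 CPM were present in this cell. Chrna3 is one of the sympathetic markers listed, and was the highest here of all 33 SNT cells of the day, whereas Dbh, Slc6a2 (the noradrenaline transporter gene), Phox2a and Hand2 were at 0. Chrna3 was above 10 CPM in 2 of 33 SNT and 0 of 14 control cells of day 7. At day 3 it was above that level in 20 of 41 SNT and 11 of 18 control cells. Gch1 stood at 42.2 and Maob, an amine oxidase gene, at 325 CPM. Atf3 was at 0, as in 13 of the 33 SNT cells of that day. This cell therefore held only Th of the 5 marker genes above 10 CPM, whereas control cells 4 and 7 of day 3 held all 5. Its Th was also below their 4804 and 4165 CPM.

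Fam19a4 was present in 2 of 14 control cells (cells 5 and 14, at 100 and 90.2 CPM) and 2 of 33 SNT cells (at 41.6 and 37.03 CPM), with log2 ratio -1.91. Cd34 was present in 5 of 14 control cells (35.7%, exact 95% interval 12.8% to 64.9%), up to 147 CPM, and in 6 of 33 SNT cells (18.2%, 6.98% to 35.5%), up to 156 CPM, with log2 ratio -1.16. At day 7, 3.491% of those genes were lower by more than 1. Zfp521 ran the other way, present in 6 of 14 control cells (42.9%, 17.7% to 71.1%) and 25 of 33 SNT cells (75.8%, 57.7% to 88.9%), with means of 16.4 ± 27.9 and 33.6 ± 27.5 CPM and log2 ratio 0.99.

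By sex, each stratum at day 7 held 7 control cells and 16 (female) or 17 (male) SNT cells of other animals. Zfp521 had log2 ratios of 0.88 in female and 1.23 in male cells, Fam19a4 of -3.34 and -1.18, and Cd34 of -1.65 and -0.87. Their direction was the same in both sexes. Th had 3.83 in female and -1.07 in male cells, and cell 6 gave 99.4% of the female SNT total.

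The cells with 3 marker genes at day 7 were control cell 5, with Fam19a4 at 100, Cd34 at 17.6 and Zfp521 at 15.5 CPM, and SNT cell 22, with Fam19a4 at 37.03, Cd34 at 156 and Zfp521 at 15.6 CPM. Both had high Nefh, at 3233 and 5280 CPM, and Ntrk3 at 758 and 959 CPM, with Gfra2 and Runx1 at 0. Neither resembled the pair of day 3 in these genes.

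Of 11623 genes above 10 CPM in at least 5 kept cells of day 3, those most like the mean log2(CPM + 1) of the 5 marker genes were Gpx2 (r = 0.65), Gm21949 (0.64), Slc12a7 (0.63), Adamts3 (0.63), Pik3c3 (0.63), Sema3e (0.62), Pja1 (0.61) and Hcrtr2 (0.61), over 59 cells. Their r at day 7 lay between -0.05 and 0.23 for the 7 that could be compared over 47 cells. Without the pair, r lay between 0.18 and 0.43 for the 6 still above the limit on cells. Hcrtr2, an orexin receptor gene at 113 and 102 CPM in control cells 4 and 7, averaged 43.6 CPM in control and 2.27 CPM in SNT pools (log2 change -4.02, SE 0.47, edgeR adjusted p = 8.2e-09). Adamts3, a procollagen-processing protease gene, and Pik3c3, a lipid kinase gene, also passed in the pools, with log2 changes of -1.42 (SE 0.47) and -1.11 (SE 0.24, edgeR adjusted p = 0.023 and 4.1e-04). The other 5 did not pass both limits, where 7.114% of all genes tested were called lower. The 3 that passed were not confined to the pair. Pik3c3 was above 10 CPM in all 59 cells, and Hcrtr2 and Adamts3 reached 95.05 and 64.3 CPM in other cells of day 3.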

How the data were processed

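The authors aligned reads with Bowtie2 to mm9, quantified RefSeq exons with RSEM without ribosomal RNA, per the labels and the study's methods. The deposited tables are named TPM, but they hold expected counts: totals differ between libraries, and 60.7% to 93.6% of a library's values above 0 are whole. The authors' removal of 11 outlier cells was kept. Counts scaled to 1e6 per library (CPM) were computed from them.

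Pooled libraries were tested with edgeR 4.0.16 (quasi-likelihood, TMM, counts rounded, mean of at least 1 CPM, prior count 0.125) in R 4.3.3, with Benjamini-Hochberg adjustment, and checked on simulated data. CPM carry no TMM factors. Same-numbered pools did not deviate together, and the fit had no block. Alternatives were RLE, library size alone, filters, DESeq2 1.42.0, limma 3.58.1, prior count 2, a replicate block, thinning and each library left out. For cells they were pseudocount, median, level, thinning to 200000 counts, quantile normalization and sex.

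Cells were described in Python 3.11.15 (numpy 2.4.6, scipy 1.17.1, pandas 2.3.3), with exact Clopper-Pearson and Poisson intervals. Libraries carry no molecular identifiers, so intervals cover counting error only. Cells were picked singly and doublets were not searched for. The marker genes and lists were chosen with earlier results of these data known. Named were the 5 marker genes, list members past both limits, up to 3 examples of other lists, Atf3, Sprr1a and Gal, and the 8 genes most like the marker genes. Other genes of the associated, catecholamine and related lists, and of single cells, were named after their values were seen. Sequences are from RefSeq and transcript lengths from GENCODE M21, both on GRCm38, whereas reads were counted on mm9. Some genes of the lists are counted in them but not reported here.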

Additional observations from a re-analysis of the deposited data

Results flagged for a closer look

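Within the 7 control cells of a sex at day 7, 8 of the 10 sets of values checked had a highest cell farther from the rest than Dixon's 95% value of 0.568 allows. Chance flags about 1 in 20 such groups of normal values, and values that are mostly 0 are flagged more readily. In females these were Fam19a4 at 100.3 CPM in cell 5 (next value 0), Cd34 at 129 CPM in cell 2 (next 17.6), Zfp521 at 106 CPM in cell 1 (next 20.8) and Slc17a8 at 1.32 CPM in cell 2 (next 0). In males these were Fam19a4 at 90.2 CPM in cell 14 (next 0), Cd34 at 147 CPM in cell 11 (next 38.3), Zfp521 at 38.7 CPM in cell 10 (next 15.3) and Slc17a8 at 1.92 CPM in cell 12 (next 0). Both Slc17a8 values stand for 1 count. The flagged cells differed between marker genes, apart from female cell 2, which was flagged for Cd34 and for the single count of Slc17a8.

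Th had a log2 ratio of SNT over control cells of -6.99 at day 3 and 2.78 at day 7, and Zfp521 of -1.97 and 0.99. At day 7, Th had 3.83 in female and -1.07 in male cells. These pairs of opposite sign were not tested, since no animal is named for any cell. The Th values rest on control cells 4 and 7 of day 3 and on SNT cell 6 of day 7. None of the 11 outlier cells exceeded the highest kept control cell of day 3 for any of the 5 genes.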

How the results depend on the processing

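Pooled calls of Th, Fam19a4, Cd34 and Zfp521 held in all 15 alternatives, with log2 changes from -2.45 to -2.09, -2.30 to -1.64, -3.80 to -2.96 and -1.91 to -1.37. Slc17a8 kept its direction in 14, from -4.11 to -1.92, with its size reduced by limma (-1.92) and by a prior count of 2 (-1.95), and lost its call when pools were thinned (-3.06, edgeR adjusted p = 0.085). With a library left out it ranged from -4.11 to -2.99, without a call lacking control library 3 (-3.34) or SNT library 3 (-2.99). Under the filter of 10 CPM it gave no value. Genes past both limits numbered 2154 (1193 higher, 961 lower) and 1649 to 2243 in alternatives. Library size alone moved the median of all genes from 0.02 to -0.14 and the split to 978 higher and 1265 lower. Numbers did not pair the pools (r = 0.06, -0.02 and -0.01), and the replicate block changed no call of the 5 genes (Slc17a8 adjusted p = 0.046 in edgeR; 2008 genes called).

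In cells, marker genes lower by more than 1 at day 3 numbered 4 with a pseudocount of 10 (Slc17a8 at -0.74), 2 over medians, 1 without the pair and 0 without the 3 control cells that held at least 3 marker genes (both added after seeing the data), instead of 5. The last 2 left out only control cells chosen for high values, so that a smaller number was built in. Without the highest cell of each side, the marker genes lower by more than 1 numbered 5. At day 7 they numbered 0 with a pseudocount of 10, instead of 2. Reversed were Zfp521 at day 3 over medians (1.51) and without the pair (0.63), Fam19a4 without the pair (0.34), Th (0.21), Fam19a4 (0.29) and Zfp521 (0.78) without those 3 cells, and Th at day 7 over medians (-1.07), without the highest cells (-0.92) and in males (-1.07). Cells with at least 3 marker genes numbered 6, but 31 at a level of 1 CPM and 2 at 50 CPM. Of the 8 genes most like the marker genes, 0 were among the highest 8 by Spearman's rho, 0 at day 7 and 1 in control cells alone. The cause was not tested. Depth limits low levels, since 1 count in a cell is worth up to 3.83 CPM.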
